A study of Fragaria x ananassa with 4 samples.

Results

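The genes of the mitochondrial respiratory chain and of its close partners were followed in the strawberry receptacle, the fleshy tissue that carries the achenes, at the red (R) and the small green (G1) stage. Members were taken by their description alone: rows of the deposited expression matrix whose annotation text names cytochrome c, ubiquinone or ubiquinol, alternative oxidase, NADH dehydrogenase, mitochondrial ATP synthase, uncoupling protein or an ADP/ATP carrier, without any mention of chloroplast, plastoquinone or succinate. This gave 54 members among 35116 sequences that name a gene, and 8 further rows matched the first terms and were left out by the second. No measured value is part of this rule, but it was set with earlier results of these data known. The comparison rests on 4 arrays, 2 of red and 2 of green receptacle of cultivated strawberry (F. × ananassa), each hybridised in 1 colour with Cy3-labelled total RNA. For both stages the labels name only the harvest of fruits, from plants raised in a growth chamber and later in a greenhouse, while the methods of the study describe field-grown Camarosa plants, RNA from independent pools of fruits, more pools than the 2 samples of a stage, and the removal of achenes before extraction. Which pools the arrays hold is not stated, so the p-values may measure only a technical spread. Plant age was not given in the sources used here. The probes were designed on gene models of woodland strawberry, so a member is a gene model of that species read with RNA of the cultivated one.

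In plant mitochondria, complex I (NADH dehydrogenase) and complex II pass electrons to ubiquinone, complex III (the cytochrome bc1 complex) passes them on to cytochrome c, and complex IV (cytochrome c oxidase) gives them to oxygen. The proton gradient built on the way drives ATP synthase, and the ADP/ATP carriers exchange the product for cytosolic ADP. Plants also have bypasses that conserve less or no energy, namely rotenone-insensitive NAD(P)H dehydrogenases, the alternative oxidase, which has been studied in ripening fruits such as mango and tomato, and uncoupling proteins.

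The signal of a gene is given relative to the 75th percentile of its own array, so that 1 stands for that percentile. It can be compared between arrays for 1 gene, but not between genes, since probes differ in how well they bind. Of the 54 members, 50 were tested. All 4 arrays read 48 of them well above background, and the other 2 were read so only on both green arrays. The remaining 4 members, gene10256, gene02517, gene16993 and gene28377, were well above background on 0 arrays and give no information on either stage. Of the members tested, 49 were read by 1 probe and gene32933 by 2. No tested member was saturated (0 of 50). The arrays of a stage agreed closely across genes (r = 0.994 for the red pair and 0.995 for the green pair, over genes, which are not independent replicates). Where a member's probe was printed at 2 spots (29 members), the spots differed by a median of 0.067 on the log2 scale. Red replicate 1 sat alone on its slide, and red replicate 2 shared a slide with both green samples. The paper lists the 7 genes used here as stage markers by their change between red and green receptacle. The red-stage genes FaMYB10, FaPG1, FaQR and FaCAD1 were higher in red receptacle by 3.74 to 8.40 on the log2 scale. An expansin (log2 -5.22), a xyloglucan endotransglucosylase/hydrolase (log2 -11.2) and an auxin efflux carrier (log2 -6.56) were lower. The paper's comparison rests on the same deposited arrays, so this agreement was set in advance and does not check the labels. Seed proteins moved with the stage as well. Of 36 rows whose descriptions match storage globulins, oleosins or late embryogenesis abundant proteins, 33 were tested. Of these, 28 rose and 3 fell (84.8% and 9.09%, against 37.8% and 35.1% of all genes). The red mean was above the green mean in 7 of 8 storage globulin rows (median log2 0.66) and in 5 of 6 oleosin rows (median log2 1.52). For the remaining rows, mostly late embryogenesis abundant proteins, this held in 17 of 19 (median log2 1.47). Some of their descriptions name other proteins, such as hydroxysteroid dehydrogenase-like ones and an extensin. The part of achene RNA in the results was not tested.

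More members were higher than lower in red receptacle. With limma, at an adjusted p under 0.05, 29 of the 50 members tested rose (58%), 8 fell (16%) and 13 did not pass. Of the 8, gene01167 and gene06839 entered the test only through the green arrays, where they were dim but well above background, so that they had to differ. Among the 48 members well above background on all 4 arrays 29 rose and 6 fell (60.4% and 12.5%). In a fit kept to the 21493 genes read so on all 4 arrays, 39.7% rose and 35% fell. The counts over the 50 members are to be read against a transcriptome in which most genes changed. By the same test 37.8% of all 24975 genes tested rose and 35.1% fell. Among the 18666 tested genes that carry a description, as every member does, 40.3% rose and 37.1% fell. The median log2 fold change, red over green, was 0.47 over the members (quartiles -0.02 and 0.96) and 0.04 over all genes, and 35 of the 50 members lay above the median of all genes. The changes were moderate in size. The median absolute log2 change was 0.69 over the members and 0.75 over all genes, and 12 members were higher and 4 lower by at least 2-fold, while 17.4% and 21.5% of all genes passed that stricter limit upwards and downwards. In 45 of the 50 members the red and green samples did not overlap, with red above in 33 and below in 12. Both gene01167 and gene06839 are among the 12, and among the 4 that were lower by at least 2-fold. Over all genes tested, 45.1% had red above and 42% red below, so that the share without overlap was 87%, close to that of the members. On the slide that held both stages, that is without red replicate 1, 26 members rose and 8 fell (52% and 16%, against 32.4% and 32.1% of all genes), with a median log2 fold change of 0.52. In a whole tissue, more transcript per cell and a larger share of cells that express a gene cannot be told apart.

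Of the 54 rows, 5 were caught by the words of the rule but do not belong to the mitochondrial chain by their descriptions: a plastid-type NADH dehydrogenase subunit, a plastid terminal oxidase and 3 MtN3-type membrane proteins. Without them 46 members were tested, of which 28 rose and 5 fell, with a median log2 fold change of 0.51. These are 60.9% and 10.9%, against 37.8% and 35.1% of all genes tested.

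**Figure D1:**
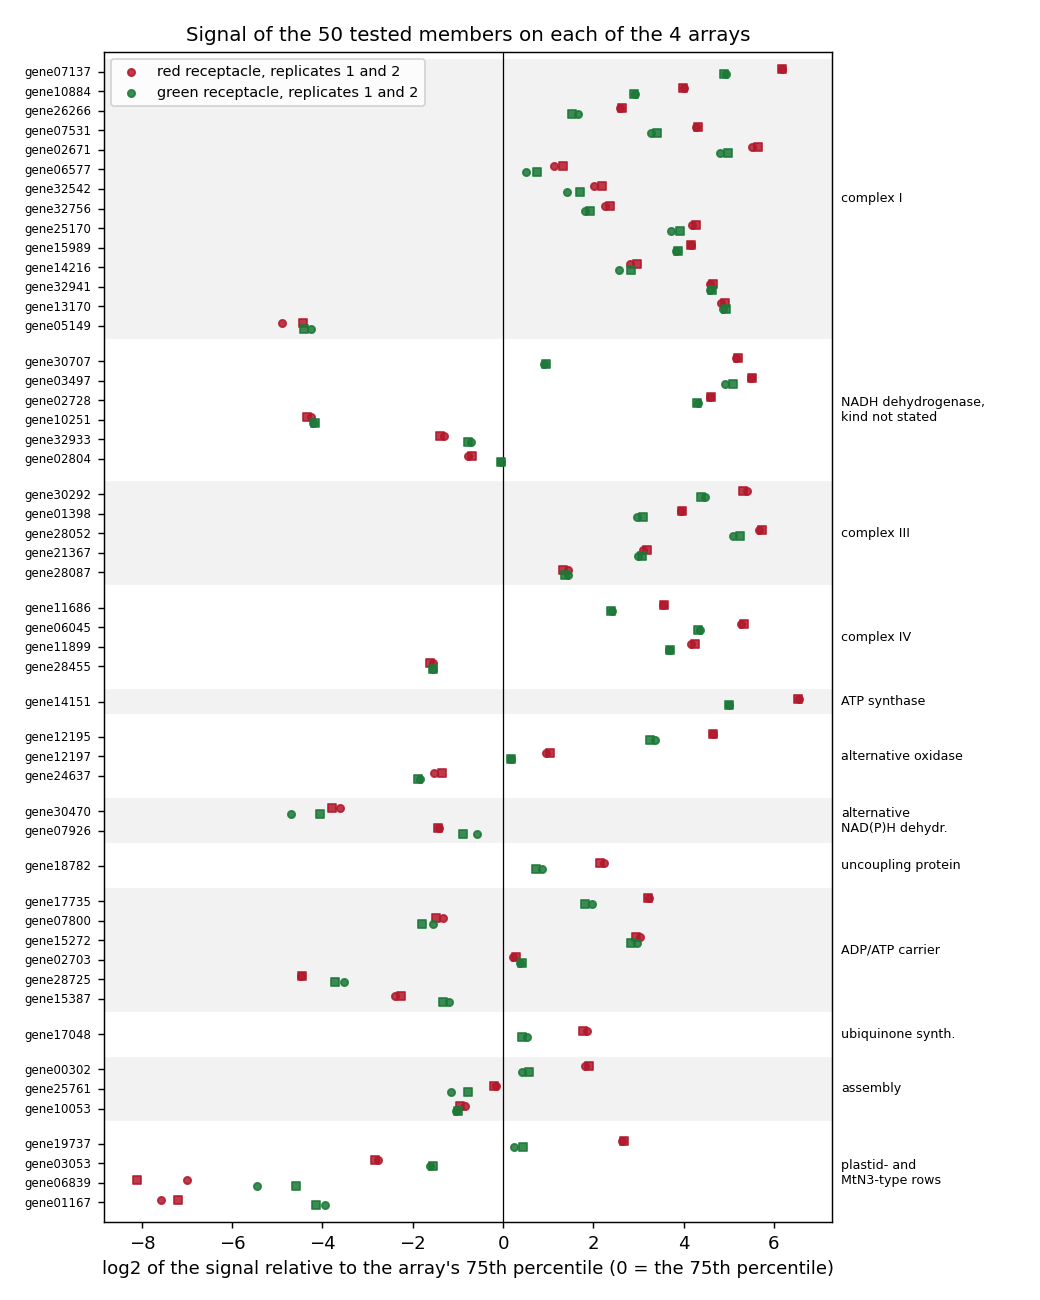
Log2 signal relative to the 75th percentile of the array (x axis) for the 50 tested members (rows, grouped by role), with red receptacle as red symbols and green receptacle as green symbols, circles for replicate 1 and squares for replicate 2. The symbols of a stage lie close together for most members, and the red ones lie to the right of the green ones in 33 rows.

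Complex I had 15 members, and of the 14 tested 10 rose, 0 fell and 4 did not pass, with a median log2 fold change of 0.50. The largest rise was that of gene07137, the 51 kDa subunit, which holds the NADH-binding site where electrons enter the complex. Its relative signal was 72.4 and 72.4 in red receptacle, against 30.8 and 29.7 in green receptacle. Both red samples stood well above both green ones, a 2.39-fold difference (log2 1.26 ± 0.06 SE, limma adjusted p = 3.1e-04). A row described as a putative chain of NADH-ubiquinone oxidoreductase 1, gene10884, had 16.1 and 15.7 in red and 7.55 and 7.50 in green samples (2.11-fold, log2 1.08 ± 0.06 SE, limma adjusted p = 4.3e-04). The 49 kDa subunit gene26266, which lies near the ubiquinone site, had 6.01 and 6.18 in red and 3.18 and 2.86 in green samples (2.02-fold, log2 1.01 ± 0.08 SE, limma adjusted p = 0.00109). In all 3 rows the stages were far apart compared with the spread within a stage, but they were named as the largest rises without overlap.

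The other complex I members that rose did so by less than 2-fold, and 4 of them did not pass after quantile normalization: gene15989 (log2 0.01), gene25170 (log2 0.14), gene32542 (log2 0.39) and gene32756 (log2 0.25). On the scaling used here their log2 fold changes lay between 0.30 for gene15989, the 24 kDa subunit that sits beside the 51 kDa subunit, and 0.95 for gene07531, described as chain 5. A group of 4 tested members carries the name PSST or 20 kDa, the subunit that holds the last iron-sulfur cluster before ubiquinone. Of these, 3 rose, gene02671 by 0.69, gene06577 by 0.60 and gene32542 by 0.55 on the log2 scale, and gene05149 did not pass (log2 -0.32 ± 0.18 SE, limma adjusted p = 0.189). Rows described alike may be near-identical copies whose transcripts a probe cannot fully separate, so these are not taken as independent readings. The members that did not pass were, beside gene05149, the accessory subunits gene13170 (1 alpha subcomplex subunit 5) and gene14216 (B14) and the membrane subunit gene32941 (chain 4L). For gene13170 the interval of the log2 difference ran from -0.24 to 0.19 and for gene32941 from -0.17 to 0.21, neither of which reaches the log2 1.26 of gene07137. For gene14216 the interval was wider, from -0.16 to 0.54. Calls in this group moved with the scaling: gene13170, gene14216 and gene32941 passed as higher with the RMA intensities, gene13170 as lower after quantile normalization and gene05149 as lower with another background correction (normexp). With the RMA intensities the median of all genes was itself 0.51, and gene13170 (log2 0.44) and gene32941 (log2 0.48) lay below it.

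The descriptions of 6 tested rows say NADH dehydrogenase without saying whether complex I, a bypass enzyme or another family is meant. These rows did not share a direction: 3 rose, 2 fell and 1 did not pass. The largest change among the tested members was in this group. The row gene30707, described only as a putative NADH dehydrogenase, had a relative signal of 35.6 and 37.0 in red receptacle, against 1.86 and 1.93 in green receptacle. The samples of each stage nearly coincided while the stages were 19.1-fold apart (log2 4.26 ± 0.07 SE, limma adjusted p = 3.5e-05). The row gene10251 has the same description, was much the same at both stages (0.0523 and 0.0489 in red, 0.0544 and 0.0561 in green samples) and did not pass (limma adjusted p = 0.185). Its call moved with the processing. The row passed as higher with the RMA intensities (log2 0.355) and after quantile normalization (log2 0.323), but as lower with normexp (log2 -0.399). Its RMA value lay below the median of all genes on that scaling (0.51). Another row with that description, gene10256, is one of those that were not above background.

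The remaining rows of this group changed by less than 2-fold. gene03497 had 45.0 and 45.9 in red and 30.2 and 34.3 in green samples (log2 0.50 ± 0.09 SE, limma adjusted p = 0.0111), and gene02728 had 23.9 and 24.3 in red and 20.02 and 19.8 in green samples (log2 0.28 ± 0.06 SE, limma adjusted p = 0.0199). The call of gene02728 was lost when any 1 of the 4 samples was left out (log2 0.26 to 0.29). The rows that fell were gene02804, with 0.581 and 0.619 in red and 0.975 and 0.963 in green samples (log2 -0.69 ± 0.07 SE), and gene32933, with 0.403 and 0.381 in red and 0.608 and 0.587 in green samples (log2 -0.61 ± 0.07 SE), both past the test in limma (adjusted p = 0.00192 and 0.00281).

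Complex III takes electrons from ubiquinol to cytochrome c. Of its 5 tested members 3 rose, 0 fell and 2 did not pass, with a median log2 fold change of 0.53. The Rieske iron-sulfur subunit gene01398, which accepts the first electron from ubiquinol, had a relative signal of 15.4 and 15.7 in red and 7.86 and 8.54 in green receptacle (1.90-fold, log2 0.92 ± 0.08 SE, limma adjusted p = 0.00105). The small subunit gene30292, described as an 8.0 kDa protein, had 42.5 and 39.9 in red and 22.1 and 21.0 in green samples (1.91-fold, log2 0.93 ± 0.07 SE, limma adjusted p = 9.7e-04). The ubiquinone-binding protein QP-C, gene28052, had 51.1 and 52.9 in red and 34.2 and 38.0 in green samples (1.44-fold, log2 0.53 ± 0.09 SE, limma adjusted p = 0.00721). In all 3 the stages did not overlap, which was a condition for being named here and held for 87% of all genes. The other QP-C row, gene16993, was not above background on any array. The 6.7 kDa proteins gene21367 and gene28087 did not pass, and the intervals of their log2 differences, from -0.10 to 0.34 and from -0.25 to 0.21, do not reach the value of the Rieske subunit. Both passed as higher with the RMA intensities (log2 0.58 and 0.44), where the median of all genes was 0.51.

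Complex IV reduces oxygen. Of its 4 members 3 rose, 0 fell and 1 did not pass, with a median log2 fold change of 0.74. Both rows for subunit Vb, a nuclear-encoded subunit known from mammals to bind zinc, rose. The row gene11686 had 11.7 and 11.8 in red and 5.34 and 5.26 in green receptacle (2.22-fold, log2 1.15 ± 0.06 SE, limma adjusted p = 3.6e-04), and gene06045 had 38.7 and 40.1 in red and 20.6 and 19.8 in green samples (1.95-fold, log2 0.96 ± 0.07 SE, limma adjusted p = 7.0e-04). These 2 rows share a description and may share signal. Subunit 6b, gene11899, had 18.0 and 18.9 in red and 12.7 and 12.9 in green samples (1.44-fold, log2 0.52 ± 0.07 SE, limma adjusted p = 0.00387). Subunit 5C, gene28455, was close to equal at both stages, with 0.339 and 0.325 in red and 0.339 and 0.343 in green samples (log2 interval -0.22 to 0.15). It passed as higher with the RMA intensities (log2 0.43) and after quantile normalization (log2 0.21). The RMA value lay below the median of all genes on that scaling (0.51).

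A single member belongs to ATP synthase, the small 6 kDa subunit gene14151. Its fold change was above that of every tested member of complexes I, III and IV, with a relative signal of 93.8 and 91.9 in red receptacle, against 32.2 and 31.9 in green receptacle (2.90-fold, log2 1.53 ± 0.06 SE, limma adjusted p = 1.8e-04).

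**Figure D2:**
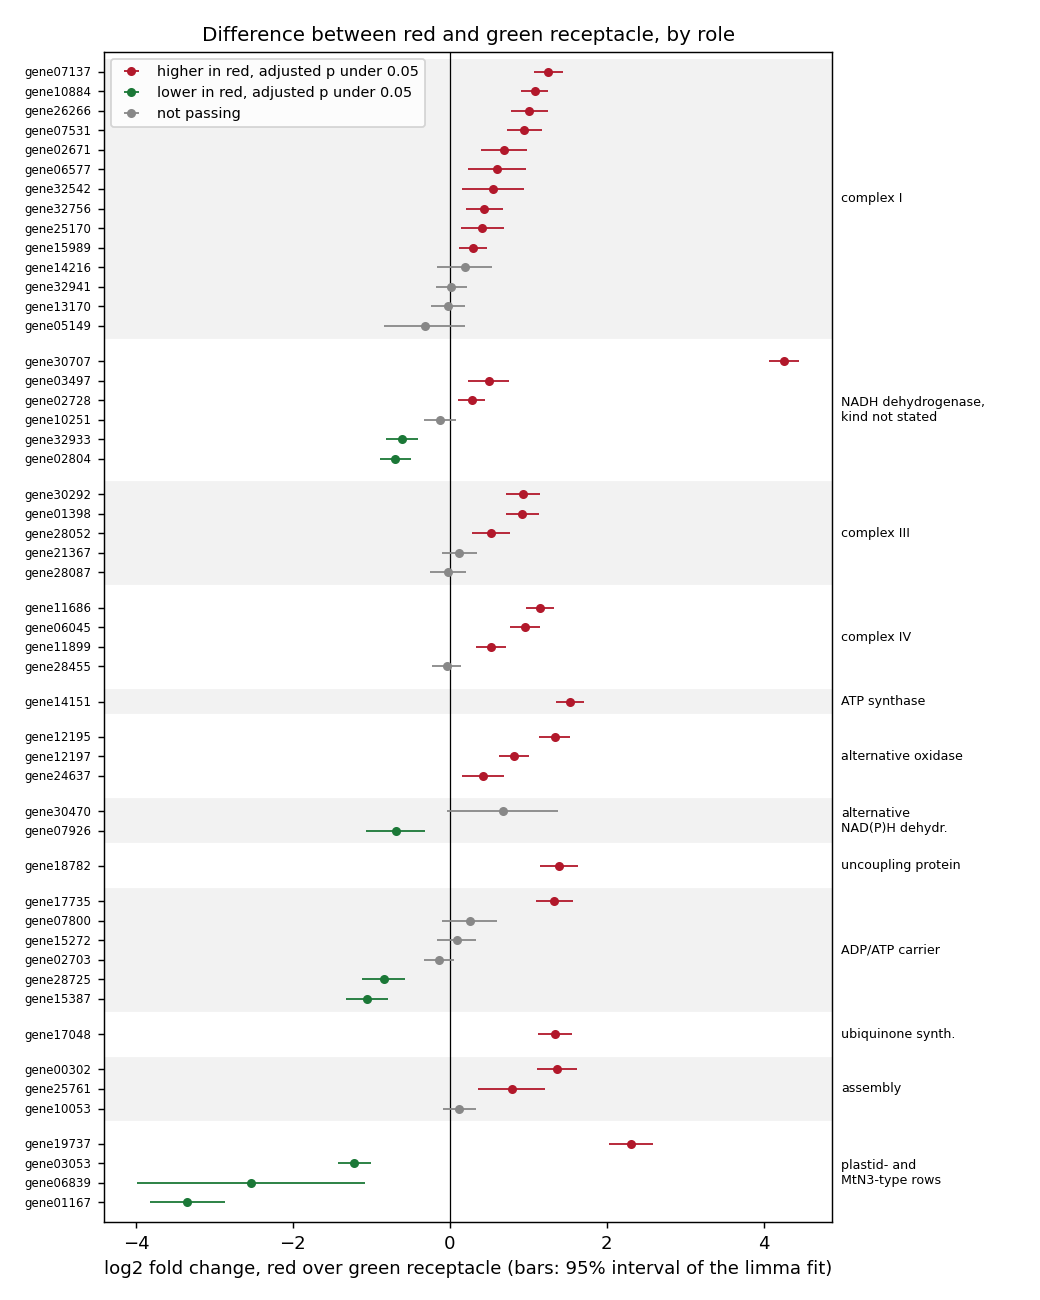
Log2 fold change, red over green receptacle (x axis), of the 50 tested members by role, with the 95% interval of the limma fit as bars; red points rose, green points fell and grey points did not pass at an adjusted p of 0.05. On this scaling no tested member of complexes I, III or IV fell, while the carriers and the NADH dehydrogenases of no stated kind lie on both sides of 0.

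The bypasses did not move as a block. The alternative oxidase, which takes electrons from ubiquinol straight to oxygen without pumping protons, was higher in red receptacle in all 3 of its rows, with a median log2 fold change of 0.82. For gene12195 the relative signal was 25.0 and 25.3 in red and 10.3 and 9.61 in green receptacle (2.52-fold, log2 1.34 ± 0.07 SE, limma adjusted p = 3.5e-04). For gene12197, whose gene model also matches alpha-galactosidases, it was 1.94 and 2.04 in red and 1.14 and 1.12 in green samples (1.76-fold, log2 0.82 ± 0.07 SE, limma adjusted p = 0.00107). In both the stages lay far apart compared with the spread within a stage. The third row, gene24637, had 0.345 and 0.394 in red and 0.280 and 0.269 in green samples (1.34-fold, log2 0.42 ± 0.10 SE, limma adjusted p = 0.0191), and this call was lost without red replicate 2 (log2 0.33), without green replicate 1 (log2 0.46) and without green replicate 2 (log2 0.40).

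The rotenone-insensitive dehydrogenases, which feed electrons from NAD(P)H to ubiquinone without pumping protons, did not share a direction. The row gene07926 fell, with 0.376 and 0.371 in red and 0.673 and 0.538 in green receptacle (log2 -0.69 ± 0.13 SE, limma adjusted p = 0.0125). The row gene30470 had 0.0815 and 0.0719 in red and 0.0384 and 0.0600 in green samples and did not pass (log2 0.67 ± 0.25 SE, limma adjusted p = 0.0753). Its green samples differed from each other by almost as much as from the red ones, and its value moved with the processing: log2 1.23 with the RMA intensities and 1.11 after quantile normalization, both past the test in limma (adjusted p = 0.0216 and 0.0167), and -0.04 with normexp. It also passed with an intensity trend (limma adjusted p = 0.046) and without green replicate 2 (log2 0.99), but not without green replicate 1 (log2 0.35). The uncoupling protein gene18782, which lets protons back across the inner membrane, had 4.68 and 4.44 in red and 1.83 and 1.65 in green samples and rose 2.63-fold (log2 1.39 ± 0.09 SE, limma adjusted p = 5.1e-04).

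Of the 6 ADP/ATP carriers, which exchange ATP made in the matrix for ADP, 1 rose, 2 fell and 3 did not pass. The carrier that rose was gene17735, with 9.33 and 9.27 in red and 3.89 and 3.51 in green receptacle (2.52-fold, log2 1.33 ± 0.08 SE, limma adjusted p = 4.9e-04). The largest fall was in gene15387, with 0.189 and 0.210 in red and 0.435 and 0.397 in green samples (log2 -1.06 ± 0.10 SE, limma adjusted p = 0.00134). The second was in gene28725, with 0.0450 and 0.0454 in red and 0.0872 and 0.0754 in green samples (log2 -0.84 ± 0.10 SE, limma adjusted p = 0.00281). The carriers that passed thus went in both directions. For the carriers that did not pass, gene15272 had 8.16 and 7.73 in red and 7.87 and 7.09 in green samples, with overlapping stages, gene02703 had 1.17 and 1.22 in red and 1.29 and 1.34 in green samples, and gene07800 had 0.398 and 0.356 in red and 0.343 and 0.289 in green samples. All 3 passed as higher with the deposited RMA intensities, gene07800 at log2 0.73, gene15272 at 0.55 and gene02703 at 0.33, the last with its sign turned. On that scaling the median of all genes was 0.51. After quantile normalization gene07800 passed as well (log2 0.51), while the sign of gene15272 turned (log2 -0.15). With the replicate number as a block gene07800 lay just past the threshold (log2 0.26, limma adjusted p = 0.0499).

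Genes that build or equip the chain were mostly higher in red receptacle. The methyltransferase COQ5, gene17048, which acts in the synthesis of ubiquinone, had a relative signal of 3.61 and 3.42 in red and 1.44 and 1.34 in green samples (2.53-fold, log2 1.34 ± 0.08 SE, limma adjusted p = 4.1e-04). The cytochrome c oxidase copper chaperone gene00302, which brings copper to complex IV, had 3.52 and 3.77 in red and 1.34 and 1.49 in green samples (2.58-fold, log2 1.37 ± 0.09 SE, limma adjusted p = 5.8e-04). The assembly protein COX19, gene25761, had 0.901 and 0.875 in red and 0.451 and 0.586 in green samples (1.73-fold, log2 0.79 ± 0.15 SE, limma adjusted p = 0.0121). Both are factors of complex IV assembly, and 3 of the 4 member rows for subunits of that complex rose as well. Among these rows gene06045 and gene11686 are described as the same subunit. A ccmA-like protein of cytochrome c maturation, gene10053, did not pass (log2 0.12 ± 0.07 SE, limma adjusted p = 0.199).

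The rows that the rule caught but whose descriptions lie outside the mitochondrial chain are given one by one. The plastid-type NADH dehydrogenase subunit N, gene01167, was not well above background in red receptacle (0.00523 and 0.00682), against 0.0653 and 0.0564 in green receptacle. Only a bound can be given, at least 7.84-fold lower in red receptacle. The MtN3-type proteins belong to a family of membrane proteins that includes sugar transporters. The row gene03053 fell, with 0.148 and 0.139 in red and 0.325 and 0.342 in green samples (log2 -1.22 ± 0.07 SE, limma adjusted p = 4.8e-04). The row gene06839 was not well above background in red samples (0.00777 and 0.00363) and had 0.0227 and 0.0417 in green samples. It was at least 3.94-fold lower in red receptacle. For gene01167 and gene06839 no p is given, since only their green signal brought them into the test. Each bound sets the mean of the green samples against the lowest signal that a probe well above background had on the red arrays, or the row's own signal where that was higher. Higher in red receptacle was the plastid terminal oxidase gene19737, a relative of the alternative oxidase that acts on plastoquinol in plastids, with 6.17 and 6.39 in red and 1.18 and 1.36 in green samples (4.96-fold, log2 2.31 ± 0.10 SE, limma adjusted p = 2.1e-04).

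**Figure D3:**
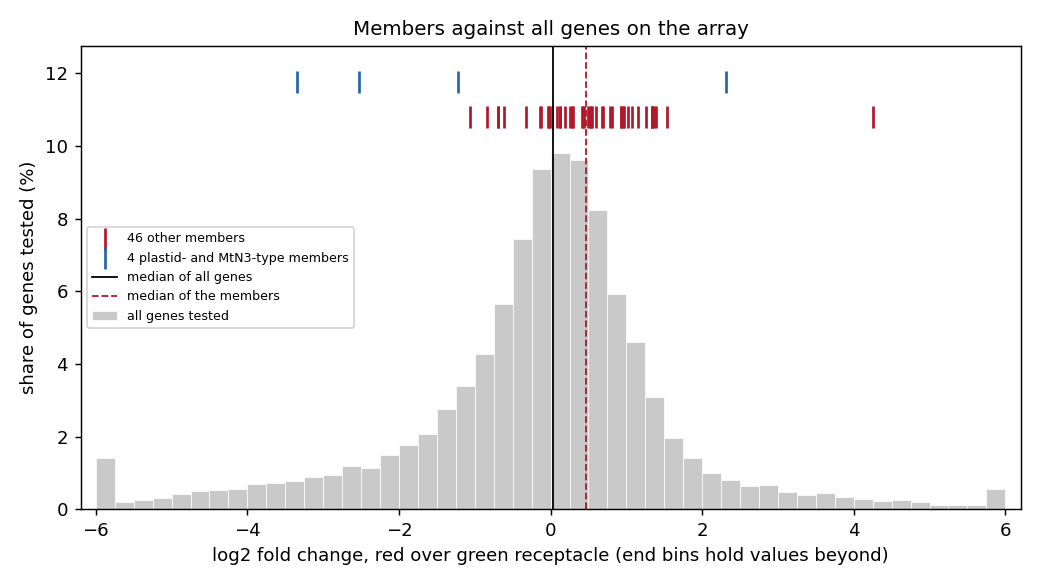
Share of all 24975 tested genes (y axis, percent, grey bars) by log2 fold change, red over green receptacle (x axis), with a tick above the bars for each member, red for the 46 members of the chain and its partners and blue for the 4 tested plastid- and MtN3-type rows. The members centre at 0.47 (dashed line), right of the median of all genes at 0.04 (solid line), and all but 1 of the 46 lie between -1.06 and 1.53.

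Other genes of mitochondrial respiration, taken by their descriptions from the same arrays, gave the following counts. They are to be read beside the 37.8% of all genes tested that rose and the 35.1% that fell. For complex II, succinate dehydrogenase, which hands electrons from the citrate cycle to ubiquinone, 1 of 3 tested rows rose and 0 fell (median log2 0.14). The row that rose, gene28004 (log2 0.98), matches both the iron-sulfur subunit and an unrelated NOI protein. The citrate cycle supplies NADH to complex I. Among 28 tested rows whose descriptions match its enzymes, 19 rose and 4 fell (median log2 0.52). The match also took in 3-isopropylmalate dehydrogenases, ATP-citrate synthases, acetyltransferases of pyruvate dehydrogenase and NADP-dependent isocitrate dehydrogenases, which are not steps of the cycle itself, and all 28 are counted. The NADP-specific isocitrate dehydrogenase gene28449 had the largest rise (log2 1.76), citrate synthase gene26778 rose (log2 1.29), and malate dehydrogenase gene24680 fell (log2 -1.73). Lower still in red samples were malate dehydrogenase gene24686, with a log2 relative signal of -7.87 and -7.82 in red and -3.81 and -3.64 in green samples, and the 2-oxoglutarate dehydrogenase E2 row gene03335, with -5.52 and -5.12 in red and -2.13 and -2.24 in green samples. Both were dim, and no fold is given for them. The description of gene24686 also names a glyoxysomal malate dehydrogenase, so this row may not belong to the cycle. Among 24 rows for protein import into mitochondria, prohibitins and the processing peptidase that cuts imported precursors, 21 rose and 0 fell (median log2 0.71). The 29 tested ATP synthase rows outside the membership mix mitochondrial, plastid and vacuolar enzymes, and 10 rose and 8 fell (median log2 0.04). This median therefore does not describe the mitochondrial enzyme alone. Among rows described as mitochondrial, gene01871 (log2 0.99), gene05689 (log2 0.69), gene27000 (log2 0.55), gene25732 (log2 0.54) and gene03056 (log2 0.44) rose. The mitochondrial rows gene12243 (log2 0.23), gene28800 (log2 0.07) and gene28005 (log2 -0.06) did not pass. The chloroplastic delta chain gene27510 fell (log2 -2.185). Of the 7 tested rows that the rule left out, mostly plastid NAD(P)H dehydrogenase subunits, 0 rose and 7 fell (median log2 -1.0). Complex I members and these rows thus did not share a direction.

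**Figure D4:**
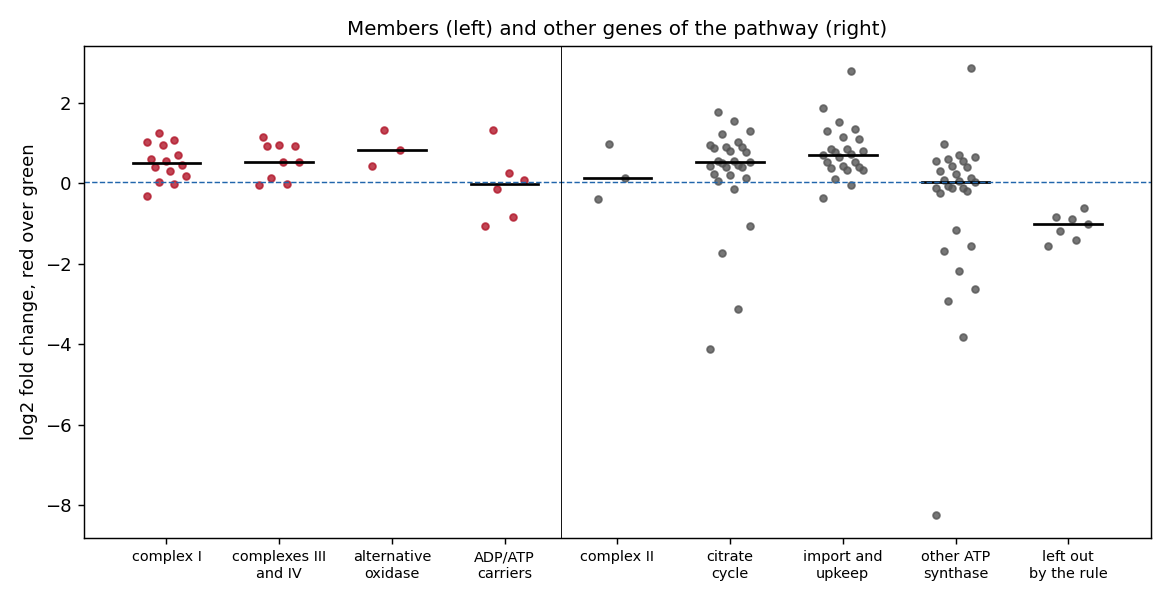
Log2 fold change, red over green receptacle (y axis), of single genes in 4 member groups (red points, left of the vertical line) and in 5 other lists of the pathway (grey points, right of it), with a black bar at each median and a dashed line at the median of all genes, 0.04. Complex I and the import list lie mostly above the dashed line, and the 7 rows left out by the rule lie below it.

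How many genes counted as higher depended on how the arrays were scaled. Of all genes called, 51.9% were higher in red receptacle with the scaling used here, 68.9% with the RMA intensities that the authors deposited and 39.9% after normexp. Over all genes the median log2 fold change was 0.51 with the RMA intensities, -0.21 with normexp and 0.18 after quantile normalization. The median of the members stood above that of all genes by 0.43 here, by 0.42 with the RMA intensities, by 0.69 with normexp and by 0.13 after quantile normalization. All 29 members that rose and all 8 that fell kept their sign under these 3 scalings. For gene01167 and gene06839, among the 8, this adds nothing, since only their green signal brought them into the test. Relative to the median of all genes the 29 and the 8 also kept their side, except that after quantile normalization gene02728, gene15989 and gene25170 fell below it.

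**Figure D5:**
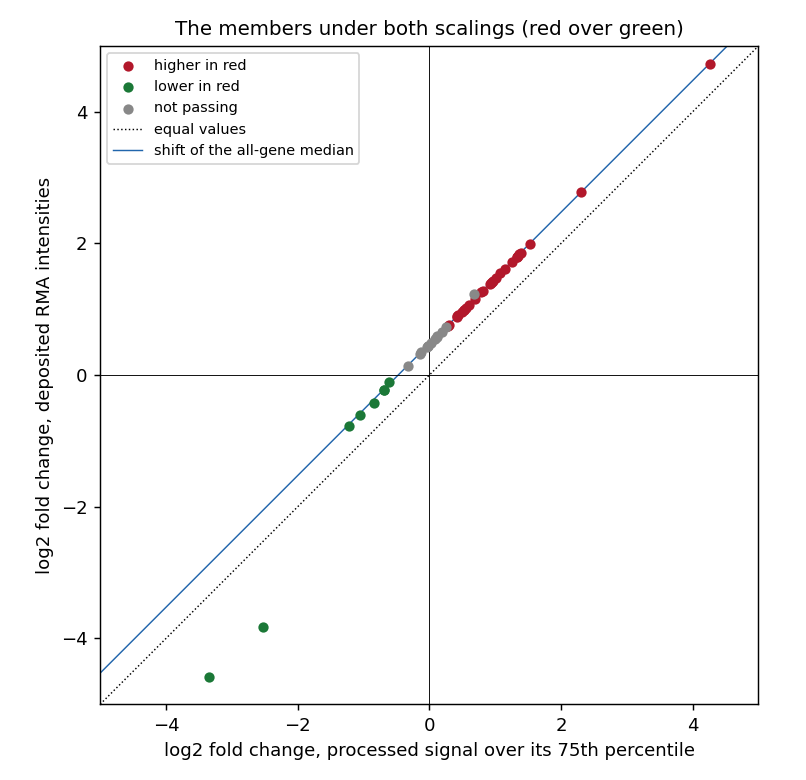
Log2 fold change, red over green receptacle, of the 50 tested members from the processed signal relative to the 75th percentile (x axis) and from the deposited RMA intensities (y axis), with colours for members that rose, fell or did not pass on the x axis scaling. Most points follow the solid line, which is shifted upwards by the difference between the medians of all genes (0.51 and 0.04), and only the dim rows gene01167 and gene06839 lie far below it.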

How the data were processed

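For each array the authors deposited the spot table of Agilent Feature Extraction 10.7.3.1, in which the intensity (processed signal) is background-subtracted, corrected for spatial trends, and left unscaled between arrays. A matrix of linear RMA intensities of the same 4 arrays, with gene descriptions, was deposited too; 1 of its rows names no gene.

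The processed signal was taken as log2 minus the 75th percentile of the array over spots other than controls. Outlier-flagged spots were dropped, a probe's spots averaged, and a probe kept where at least 2 of 4 arrays read it well above background. A gene is the mean of its kept probes, and 40 genes without a value on an array were left out. The 24975 genes were compared with limma 3.58.1 (lmFit, eBayes, two-sided, R 4.3.3), with Benjamini-Hochberg adjustment over all of them. These steps were tested on simulated data. With 2 residual and 1.81 prior degrees of freedom the test leans on the spread of other genes, and an exact permutation test of 2 against 2 samples could not go below p = 0.333. The number of arrays limits the precision. The 75th percentile of the signal was 671 and 509 on the red and 390 and 347 on the green arrays, and 23658 to 24373 probes were well above background.

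Named are all tested alternative oxidases, alternative NAD(P)H dehydrogenases, uncoupling proteins and ADP/ATP carriers, and for each other role the 3 largest increases and decreases past the test without overlap between stages. Other members were named after their values were seen, to account for every group. Members, roles and lists were chosen with earlier results of these data known. Alternatives were the RMA intensities, quantile normalization, normexp (offset 50, on the median spot signal in place of the mean one), filters, an intensity trend, thresholds, the methods' t-test, a block for the replicate number or the slide, and each sample left out in turn. Genomic positions and sequences of the gene models and probes were not used here.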

Additional observations from a re-analysis of the deposited data

How the results depend on the processing

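Of the members tested, 29 rose and 8 fell, with a median log2 fold change of 0.47. With the RMA intensities 41 rose and 5 fell (82% and 10%, against 52.8% and 23.9% of all genes; median 0.93), after quantile normalization 28 and 9 (56% and 18%, against 42.2% and 31.5%; median 0.31), and with normexp 28 and 10 (56% and 20%, against 30.9% and 46.4%). After quantile normalization 6 rises were lost, 4 of them in complex I, and 5 gained. The median was 0.42 with no filter on dim probes, 0.51 with probes well above background on all 4 arrays, and 0.52 with the slide as a block, where red replicate 1 drops out because it sat alone on its slide, so that red replicate 2 stands against both green samples (26 rose, 8 fell). When each sample was left out in turn, the median ranged from 0.40 to 0.52, against 0.02 to 0.05 over all genes. A stage left with 1 sample is assumed to vary like the other.

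At the limit of at least 2-fold, 12 members rose and 4 fell (24% and 8%), against 4353 and 5381 of all genes (17.4% and 21.5%). At the methods' threshold (an absolute log2 fold change above 2) 2 members rose, gene30707 and gene19737, and 2 fell, gene01167 and gene06839. That is 4% and 4% of the members, against 6.61% and 12% of all genes (1650 and 2985) with limma. The 2 that fell had entered the test only through their green signal. The methods' t-test gave 1612 and 2925 genes at that threshold, and 2 and 1 members. After Benjamini-Hochberg adjustment the t-test gave 7744 and 7141 genes (31% and 28.6%), and 23 and 6 members (46% and 12%). Without the plastid- and MtN3-type rows, an alternative chosen after seeing the data, 11 members rose and 1 fell by at least 2-fold, 1 rose and 0 fell at the methods' threshold, and 3 fell with the RMA intensities.

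Signs turned for 3 members of the naming rule that had not passed: gene02703 with the RMA intensities (log2 0.33), gene15272 after quantile normalization (log2 -0.15) and gene30470 with normexp (log2 -0.043). Other members that had not passed turned too, among them gene10251 with the RMA intensities (log2 0.355) and after quantile normalization (log2 0.323). The causes were not tested. Among members that had passed, gene07926 (log2 -0.23) and gene32933 (log2 -0.11) lost their calls with the RMA intensities, gene06839 there too (log2 -3.83), gene24637 with normexp (log2 0.19), gene03497 (log2 0.24), gene02728 (log2 0.05), gene15989, gene25170, gene32542 and gene32756 after quantile normalization, and gene02728 also with no filter. The replicate numbers are shared between the stages, but samples with the same number did not deviate together (correlation 0.08). Since a stage has 2 samples, this value is the same for both numbers by construction. With the number as a replicate block 30 members rose and 8 fell (60% and 16%), and 9465 and 8844 of all genes (37.9% and 35.4%). Dim signals limit gene01167 and gene06839, which are given as bounds.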
